A study of Mus musculus with 4 samples.

Results

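The receptors for glutamate, GABA and glycine receive the fast and modulatory signals between retinal neurons, and their subunit genes were described across 4 retinal libraries. The members were all rows of the deposited gene table whose symbols belong to the families of AMPA (Gria), kainate (Grik), delta (Grid), NMDA (Grin) and metabotropic glutamate receptors (Grm), GABA-A (Gabra to Gabrr) and GABA-B receptors (Gabbr) and glycine receptors (Glra, Glrb). Grm6, the receptor of ON bipolar cells, was left out by the rule. This gave 51 of the 23278 genes in the table, 25 for glutamate receptors and 26 for GABA and glycine receptors. The rule itself used gene names and no measured value, but it was set with earlier results of these data known.

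Glutamate is the transmitter of photoreceptors, bipolar cells and ganglion cells, while amacrine and horizontal cells are largely inhibitory and use GABA or glycine. AMPA, kainate and NMDA receptors are tetrameric cation channels gated by glutamate, and GABA-A and glycine receptors are pentameric chloride channels. The metabotropic glutamate receptors and the GABA-B receptor act through G proteins and tune release and excitability. Ribbon synapses and amacrine circuits are still being assembled in the mouse retina at the age studied.

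Whole retinas were taken from mice of a mixed background, with C57BL6 and 129 among its strains, at postnatal day 10. Mice of every genotype had received 20 ug of 4HT, an active form of tamoxifen, into the abdomen at postnatal day 3. The WT library carried no engineered allele according to its label. The NdpKO library came from a knockout of Ndp, which encodes the secreted ligand Norrin. The library of genotype Ctnnb1flex3/+;Pdgfb-CreER, called the stabilized library below, carried 1 allele of Ctnnb1 that recombination converts to a stabilized beta-catenin, and a CreER driven by Pdgfb regulatory sequence, which is active in endothelial cells. The library of genotype NdpKO;Ctnnb1flex3/+;Pdgfb-CreER, called the stabilized NdpKO, combined these changes. Most of the receptors described here are carried by neurons, and recombination in neurons was not measured in these data. The stabilized groups were compared with libraries without either the allele or the CreER, so an effect of the CreER itself cannot be told apart from that of stabilized beta-catenin. Each library pools 3 RNA batches of its genotype, and a batch held 4 to 8 retinas, taken from 2 to 4 mice. The spread between animals was therefore not measured, and the differences below carry neither a replicate check nor a p-value.

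Values are FPKM, fragment numbers corrected for the length of the transcript and the size of the library, so levels of different genes can be compared within a library. Each has a lower and an upper bound deposited with it, which describes the estimate within a library (confidence level and read totals: not given in the sources used here). The deposited FPKM summed to between 405525 and 427109 per library, and the 41 members whose mean reached 1 FPKM entered the ratios. For those the median distance from the value to a bound was between 17.6% and 18.8% of the value in the 4 libraries. Ndp was at 2.98 FPKM in WT (interval 2.17 to 3.80), 2.35 FPKM in the stabilized library (1.68 to 3.02), 0.873 FPKM in the NdpKO (0.561 to 1.19) and 0.869 FPKM in the stabilized NdpKO (0.557 to 1.18). Its transcript was thus lower but not absent in both knockout libraries. The X-inactivation transcript Xist reached 135 FPKM in WT and 130.4 FPKM with stabilization, against 1.3 FPKM in each Ndp knockout, and the Y-linked Ddx3y showed the opposite order, so Ndp genotype and sex cannot be told apart. Of the retinal marker lists, rods, cones, bipolar, amacrine, horizontal and ganglion cells and Muller glia had every listed gene at a mean of at least 1 FPKM, and 1 of 4 lens genes reached it.

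The retina at this age used a graded set of subunits. A total of 8 members had a mean of at least 20 FPKM, among them Gabbr1, Grik5, Gabrr1, Gria2, Gria4 and Glrb. Another 6 lay between 10 and 20 FPKM, Grik1, Grin1, Gabrr3, Gabbr2 and Glra2 among them, 27 between 1 and 10 FPKM and 10 below 1 FPKM. Gabbr1, the highest, had a mean above that of 88.6% of the 13150 genes tested. No neighbours in the order of means had intervals apart in all 4 libraries, so the order is graded and has no clear step. Summed over the 51 members, the level was 450.7, 436.9, 463.2 and 483.9 FPKM in WT, NdpKO, stabilized and stabilized NdpKO, the order in which 4 values are given from here on.

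**Figure D1:**
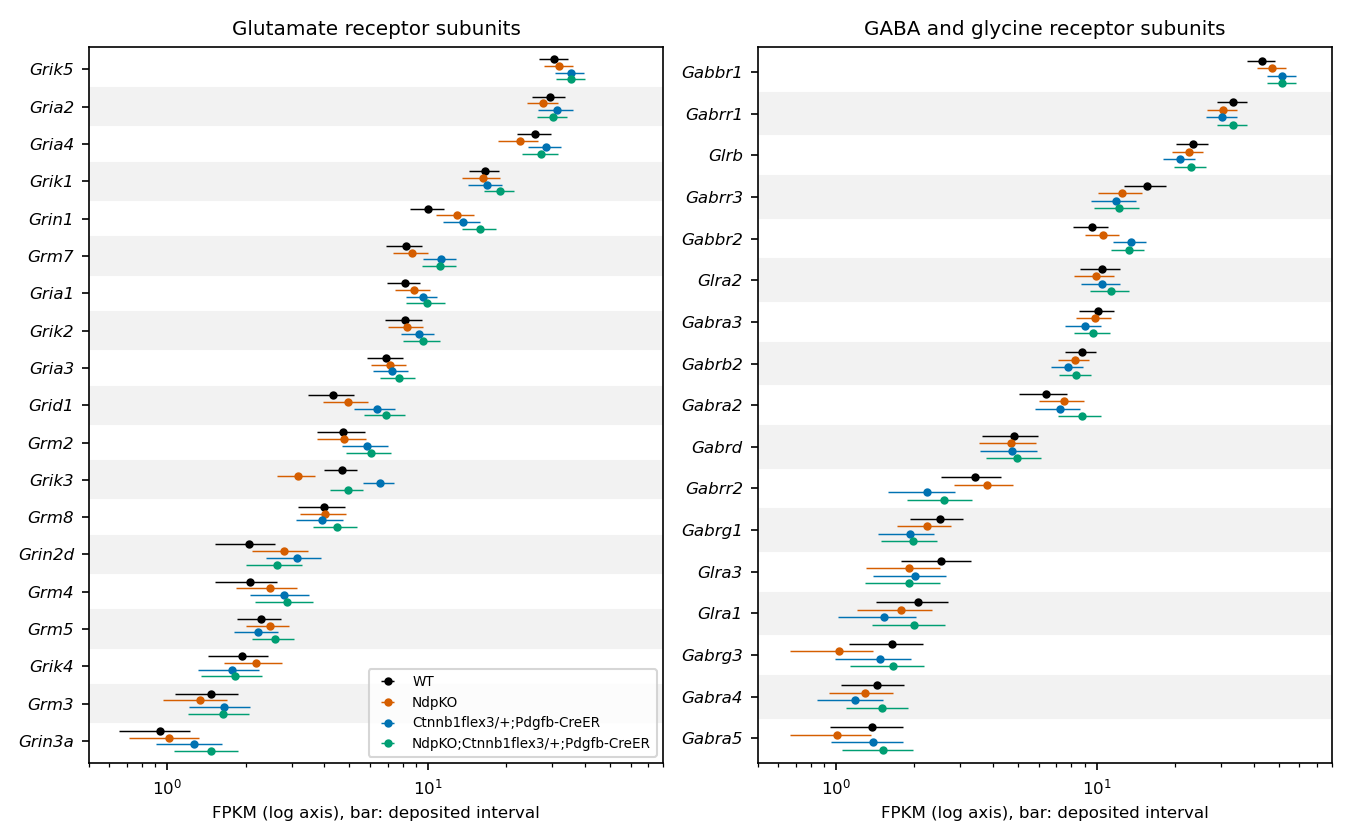
FPKM of 36 subunits of mean at least 1 FPKM in the 4 libraries, on a log axis, with glutamate receptors on the left and GABA and glycine receptors on the right. Points are the deposited values and bars the deposited intervals. Most subunits overlap between libraries, and Grik3 has the widest separation, from 3.17 FPKM in the NdpKO to 6.54 FPKM in the stabilized library.

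Among AMPA receptors, the main carriers of fast excitation, Gria2 and Gria4 dominated. Gria2, whose edited form keeps calcium out of the channel, was at 29.3, 27.7, 31.2 and 30.2 FPKM. Gria4 was at 25.8, 22.6, 28.4 and 27.2 FPKM, about level with Gria2, and its intervals overlapped those of Gria2 in each library. Gria1 was at 8.16, 8.86, 9.54 and 9.94 FPKM and the X-linked Gria3 at 6.91, 7.12, 7.25 and 7.71 FPKM. Gria2 made up between 40.2% and 41.8% of the summed AMPA FPKM, Gria4 34.1% to 37.2%, Gria1 11.6% to 13.4% and Gria3 9.5% to 10.7%. These shares moved by no more than a few percentage points between genotypes.

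Kainate receptors, which serve OFF bipolar cells among others, were led by Grik5, an auxiliary high-affinity subunit that needs a partner from Grik1 to Grik3. Grik5 was at 30.5, 31.9, 35.2 and 35.4 FPKM, between 49.3% and 51.7% of the kainate sum. Grik1, a major kainate receptor subunit of OFF cone bipolar cells, was at 16.6, 16.2, 16.8 and 18.9 FPKM, and Grik2 at 8.14, 8.31, 9.21 and 9.58 FPKM. Grik4, the other high-affinity subunit, was low, at 1.93, 2.20, 1.78 and 1.82 FPKM. Grik3 differed most between libraries and is described further on. Delta receptors, which organise synapses rather than conduct in the usual way, were represented by Grid1, also described below.

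NMDA receptors pair the obligatory Grin1 subunit with Grin2 or Grin3 subunits. Grin1 far exceeded its partners, and the highest partner was Grin2d, at 2.05, 2.80, 3.14 and 2.64 FPKM. Grin1 was 4.35 to 5.99 times as high as Grin2d across the libraries. Grin2d, a subunit of slow kinetics that is prominent in early development elsewhere in the brain, made up 52.5%, 57.3%, 63.5% and 64.4% of the summed Grin2 FPKM. Grin2b was at 0.807, 0.921, 0.601 and 0.568 FPKM, Grin2c at 0.677, 0.705, 0.785 and 0.554 FPKM and Grin2a at 0.372, 0.456, 0.420 and 0.339 FPKM, all below the minimum mean. Grin2a, the subunit that gains on Grin2b as many synapses mature, was thus at 0.46 to 0.70 times the level of Grin2b. Grin3a, which lowers calcium entry, was at 0.935, 1.02, 1.26 and 1.47 FPKM. Grin3b is listed at 0.729, 0.903, 0.688 and 0.718 FPKM, but its lower bound was 0 in each library and its deposited locus holds 46 other genes, so its level is uncertain.

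The metabotropic glutamate receptors were led by Grm7 (below), a presynaptic receptor of low glutamate affinity. Grm2, an autoreceptor that also marks starburst amacrine cells, was at 4.73, 4.78, 5.86 and 6.04 FPKM, and its group partner Grm3 at 1.47, 1.33, 1.65 and 1.63 FPKM. Grm8 was at 3.99, 4.04, 3.92 and 4.48 FPKM and Grm4 at 2.08, 2.49, 2.79 and 2.89 FPKM. Grm5, which couples to Gq, was at 2.29, 2.47, 2.24 and 2.59 FPKM. Grm7 held 32.6% to 36.9% of the sum over the metabotropic members, and Grm2 18.1% to 19.3%. For scale, the omitted Grm6 lay between 44.1 and 50.3 FPKM, above each of them.

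GABA-A receptors had 19 subunit genes among the members. The gamma subunits, which anchor receptors at synapses, included Gabrg1 at 2.50, 2.23, 1.92 and 1.97 FPKM and Gabrg3 at 1.64, 1.03, 1.47 and 1.65 FPKM. The beta subunits, which carry part of the GABA binding site, included Gabrb2 at 8.76, 8.24, 7.75 and 8.34 FPKM and Gabrb1, below the minimum, at 0.880, 0.687, 0.736 and 0.963 FPKM. Gabrb2 was thus well above Gabrb1 in each library.

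The alpha subunits, which set where a receptor sits and how it responds to benzodiazepines, covered a wide range. Gabra3 was at 10.1, 9.86, 8.99 and 9.71 FPKM and Gabra2 at 6.37, 7.49, 7.21 and 8.76 FPKM. Gabra2 was lowest in WT, although its intervals overlapped between all libraries. Gabra4 was at 1.44, 1.29, 1.18 and 1.496 FPKM and Gabra5, a subunit of extrasynaptic receptors, at 1.38, 1.01, 1.38 and 1.51 FPKM. Gabra6, typical of cerebellar granule cells, was listed at 0 in each library. Gabrd, the partner of tonic receptors, was among the steadiest members, at 4.81, 4.70, 4.72 and 4.95 FPKM. The subunits epsilon (Gabre, 0.213 to 0.271 FPKM), theta (Gabrq, 0.0566 to 0.154 FPKM) and pi (Gabrp, at most 0.0125 FPKM) were near the floor.

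The Gabrr subunits form the GABA-A receptors, once called GABA-C, of bipolar cell terminals. Gabrr1 was at 33.4, 30.6, 30.3 and 33.3 FPKM and Gabrr3 at 15.6, 12.5, 11.8 and 12.2 FPKM. Gabrr2 was at 3.41, 3.81, 2.23 and 2.60 FPKM, so Gabrr1 exceeded it 9.77, 8.03, 13.6 and 12.8 times. Gabrr1 made up 63.7% to 69.3% of the Gabrr sum, which was 52.4, 46.9, 44.4 and 48.1 FPKM.

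Both GABA-B genes are needed for a working receptor, since Gabbr1 binds GABA and Gabbr2 couples to the G protein. Gabbr1 was at 43.1, 47.2, 51.5 and 51.6 FPKM, 3.82 to 4.49 times the level of Gabbr2. Glycine receptors combine alpha subunits with Glrb, which ties them to gephyrin. Glrb was at 23.5, 22.6, 20.9 and 23.1 FPKM and was above the summed alpha subunits, at 15.5, 14.3, 14.2 and 15.5 FPKM. Glra2, the alpha subunit typical of immature neurons, was at 10.5, 9.94, 10.5 and 11.4 FPKM and made up 67.7% to 74.2% of the alpha sum. Glra1, which replaces it at many mature synapses, was at 2.06, 1.77, 1.53 and 2.00 FPKM, and Glra2 was 5.09 to 6.90 times as high. Glra3 was at 2.53, 1.91, 2.02 and 1.90 FPKM. Glra4 is listed at 0.398, 0.644, 0.112 and 0.270 FPKM with a lower bound of 0 in each library, and it shares its deposited locus with the far higher Morf4l2, so its level is uncertain.

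**Figure D2:**
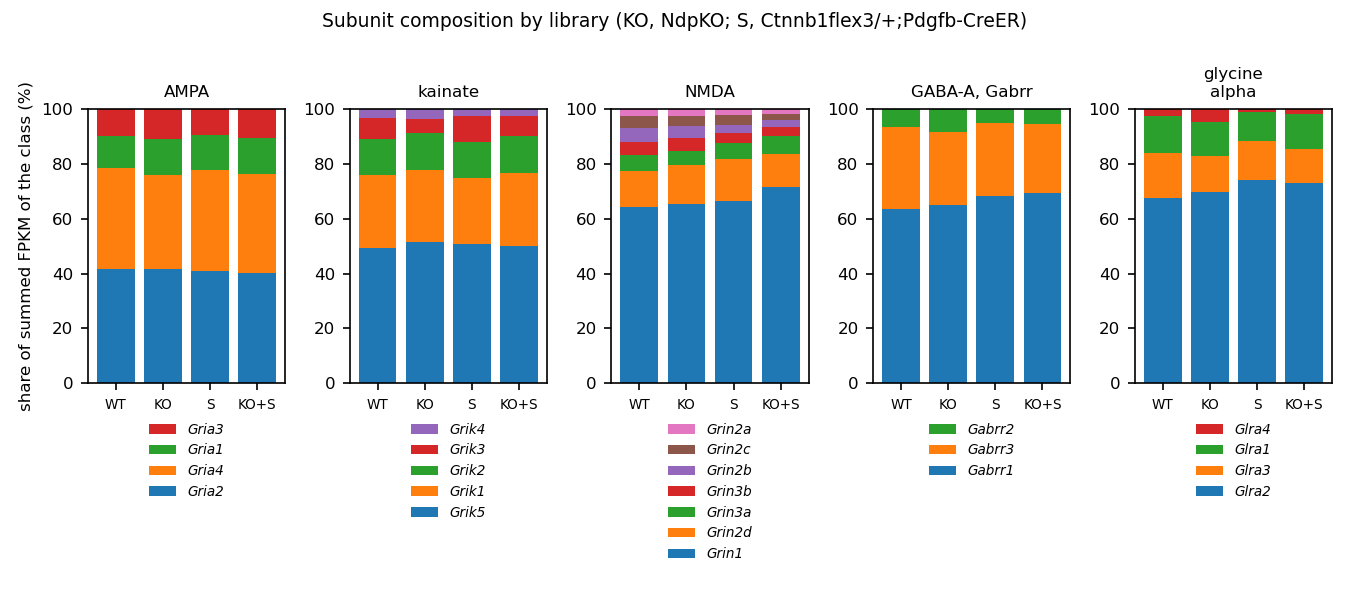
Share of each subunit in the summed FPKM of its class, in percent, for 5 classes and 4 libraries (WT, NdpKO, stabilized and stabilized NdpKO from left to right). Gria2 with Gria4, Grik5, Grin1, Gabrr1 and Glra2 lead their classes in each library, and no leading subunit is replaced in any genotype.

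GABA-A genes lie in clusters on the genome, and neighbours differed widely in level. On chromosome 5 (70751047 to 72149037, GENCODE M21 on mm10) Gabrg1, Gabra2, Gabra4 and Gabrb1 lie within 1397991 bases, and their means ran from 0.816 FPKM for Gabrb1 to 7.46 FPKM for Gabra2. On X, Gabra3 had a mean of 9.67 FPKM, while its neighbours Gabre and Gabrq were at 0.250 and 0.117 FPKM. Gabrr1 and Gabrr2 lie side by side on chromosome 4 within 100590 bases, at means of 31.9 and 3.01 FPKM. Position in a cluster thus did not go with a common level.

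Most subunits differed by less than 1.5 times between libraries, though the typical member differed more than the typical gene. With 1 library a genotype, such differences cannot be ascribed to genotype. The highest library was under 1.5 times the lowest for 34 of the 41 tested members, with a median of 1.26 times, against 1.18 times over all genes tested. Log2 ratios were taken after adding 0.5 FPKM, and a member was counted when at least 1.5-fold apart (0.58 on the log2 scale). The WT library enters 3 of the 5 comparisons, so those are not independent of each other. Intervals were apart in at least 1 comparison for 5 members: Grik3, Grid1, Gabbr2, Grin1 and Grm7. The share of all genes was not computed for this count, nor for the count under 1.5 times, so neither can be called unusual. Shares of all genes with intervals apart are given below for each comparison.

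Loss of Ndp with unmodified beta-catenin left no member 1.5-fold higher or lower in the NdpKO than in WT, beside 0.966% of all genes higher and 1.22% lower. The members' median log2 ratio was -0.03, and that of all genes -0.02. By a lower limit of 0.32 on the log2 scale Grin2d (0.37) and Grin1 (0.34) were higher, beside 2.74% of all genes, and Grik3 (-0.50), Gabrg3 (-0.48) and Glra3 (-0.33) lower, beside 3.3%. Grik3 was the 1 member with intervals apart, beside 0.327% of all genes that were lower with intervals apart and 0.433% that were higher. The 21 glutamate receptor subunits had a median of 0.07 with 15 above 0, and the 20 for GABA and glycine -0.12 with 4 above 0, beside 43.7% of all genes above 0. The split into these classes, here and below, was chosen after the values were seen. A trend on transcript length and GC content was then removed, which leaves the median of all genes at about 0. The GABA and glycine median became -0.05 and the glutamate median 0.08. By the limit of 0.32 no member was then higher, beside 3.09% of all genes, and Grik3 and Gabrg3 were lower, beside 2.45%. The X-linked subunits Gria3 (0.04), Gabra3 (-0.03) and Glra2 (-0.07) were close to 0 in these libraries, which also differ in sex.

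The comparison of the stabilized NdpKO with the stabilized library addresses the same loss when beta-catenin is stabilized, and it shares no library with the previous one. Again no member was 1.5-fold apart, beside 0.981% of all genes higher and 0.692% lower. The median was 0.08 over the members and 0.04 over all genes. Grik3 was again lowest (-0.38) with intervals apart by a very narrow gap, beside 0.213% of all genes lower with intervals apart. No member was higher with intervals apart, beside 0.312%. At a lower limit of 0.32 on the log2 scale, Grik3 was the 1 member lower in this pair, beside 2% of all genes, and none was higher, beside 3.38%. It was also the 1 member lower by that limit in both pairs, beside 0.532% of all genes, and none was higher in both, beside 0.616%. No member was 1.5-fold higher or lower in both pairs, beside 0.266% of all genes each way. Of the 41 members 21 had the same sign in both pairs (51.2%), against 49.9% of all genes. Among GABA and glycine receptor subunits 16 of 20 had opposite signs, beside 6511 of all 13150 genes. These subunits were mostly below 0 without stabilization and above 0 with it, where 43.7% and 63.0% of all genes lay above 0. Their median was -0.12 in the first pair and 0.10 in the second. With the trend on length and GC content removed it was -0.05 and 0.06.

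Endothelial stabilization of beta-catenin with Ndp intact gave no member 1.5-fold apart either, beside 1.67% of all genes higher and 1.71% lower. By the limit of 0.32, 7 members were higher in the stabilized library than in WT, Grin2d and Grid1 (both 0.51), Gabbr2 (0.47), Grik3 (0.44), Grin1 (0.43), Grm7 (0.42) and Grm4 (0.35), beside 6.27% of all genes. By the same limit 4 were lower, Gabrr2 (-0.52), Gabrr3 (-0.38) and Glra1 (-0.34) among them, beside 8.53% of all genes. Gabbr2, Grid1, Grik3 and Grm7 had intervals apart, beside 1.76% of all genes that were higher with intervals apart. The gap was narrow for Grid1 (lower bound 5.20 against 5.19 FPKM in WT) and Grm7 (9.57 against 9.53 FPKM). No member was lower with intervals apart, beside 1.57%. The glutamate receptor subunits had a median of 0.20 with 18 of 21 above 0. The GABA and glycine receptor subunits had a median of -0.16 with 5 of 20 above 0. Over all genes the median was -0.02, and 45.9% lay above 0. With the trend on length and GC content removed, 2 of the 7 members stayed past 0.32, Grm7 (0.42) and Grid1 (0.435), beside 6.02% of all genes higher, while Gabbr2 (0.319), Grik3 (0.30), Grin2d (0.28), Grin1 (0.26) and Grm4 (0.17) were below it. Gabrr2 and Glra1 stayed lower by that limit, beside 4.73% of all genes. The GABA and glycine median was then -0.09 and the glutamate median 0.16.

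The stabilized NdpKO against the NdpKO addresses stabilization on the Ndp knockout background, in libraries that the previous comparison did not use. No member was 1.5-fold apart, beside 1.76% of all genes higher and 0.92% lower. Grik3 was highest (0.56) with intervals apart, beside 1.26% of all genes higher and 0.487% lower with intervals apart. Gabrg3 (0.49), Grid1 (0.45), Gabra5 (0.41), Grin3a (0.38) and Grm7 (0.34) followed, which made 6 members higher by the limit of 0.32, beside 5.7% of all genes. Gabrr2 (-0.48) was the 1 member lower by that limit, beside 3.25%. The glutamate receptor subunits had a median of 0.19 with 19 of 21 above 0. The GABA and glycine subunits had a median of 0.12 with 14 of 20 above 0. Of all genes 59.1% lay above 0, with a median of 0.03. With the trend removed, the members higher by 0.32 were Grik3, Gabrg3, Gabra5 and Grid1, beside 4.39% of all genes, and Grm7 was at 0.29. The GABA and glycine median was then 0.06 and the glutamate median 0.16.

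Over both stabilization pairs, 17 of 21 glutamate receptor subunits were higher in each pair and 1, Grik4, was lower in each. All 4 AMPA subunits, 4 of 5 kainate subunits, 5 of 7 metabotropic receptors, 2 of 3 tested NMDA subunits and Grid1 were among the 17. GABA-A subunits were mixed, and both GABA-B genes were higher in each pair. Of all genes, 35.9% were higher in both pairs and 30.4% lower in both. No member was 1.5-fold higher or lower in both pairs, beside 0.73% of all genes higher and 0.304% lower. By the limit of 0.32, 3 members were higher in both pairs, Grid1, Grik3 and Grm7, beside 2.38% of all genes, and Gabrr2 alone was lower in both, beside 1.41%. With the trend removed, Grid1 was the 1 member higher by that limit in both pairs, beside 2.06% of all genes, and Gabrr2 the 1 lower, beside 1.28%. Across the 41 members the ratios of both pairs had a Spearman rank correlation of 0.63, against 0.50 across all genes. These are points within 4 libraries and no test attaches to them. Because the split into glutamate and inhibitory receptors was chosen after the values were seen, the contrast between the classes only describes these data.

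**Figure D3:**
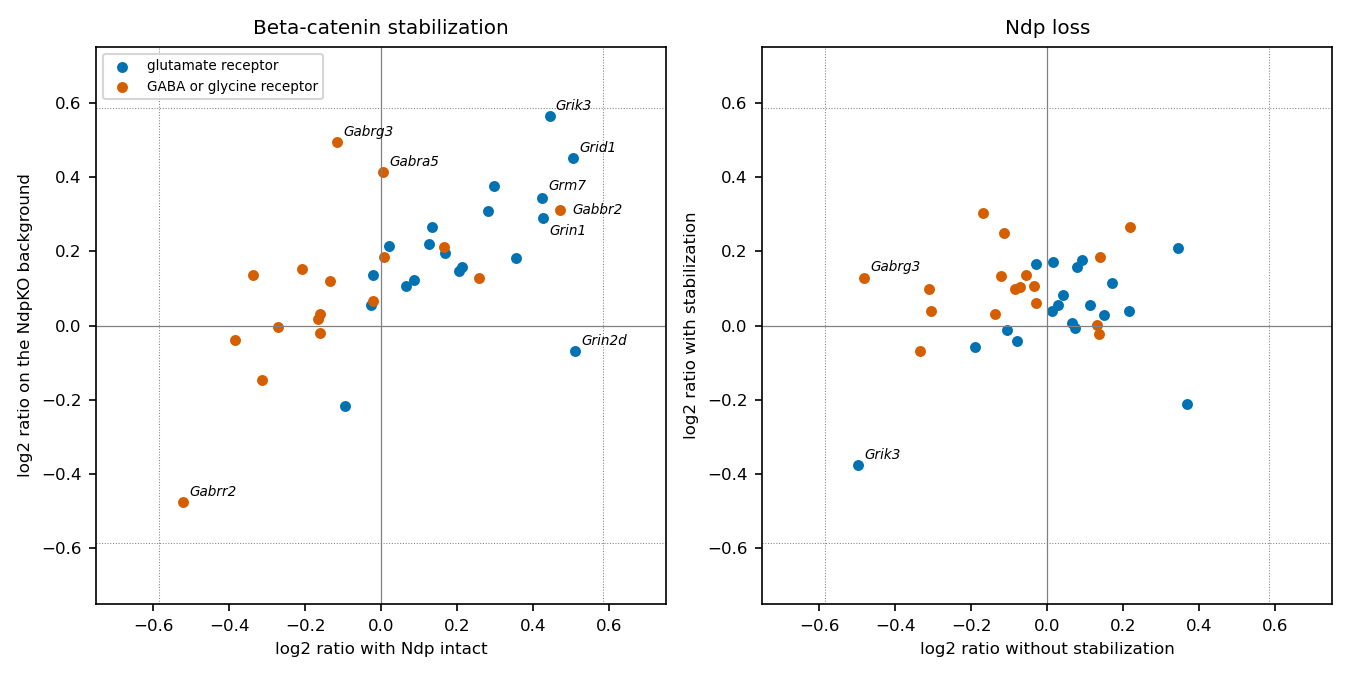
Log2 ratios of 36 tested subunits in pairs of comparisons that share no library, for beta-catenin stabilization on the left and Ndp loss on the right. Blue points are glutamate receptor subunits, orange points GABA and glycine receptor subunits, and dotted lines mark 1.5-fold. On the left most blue points lie in the upper right, with Gabrr2 farthest to the lower left, and on the right Grik3 stands apart.

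The stabilized NdpKO against WT sets all changes against none. It was the 1 comparison with members past 1.5-fold, Grin1 (0.63) and Grid1 (0.62), both with intervals apart, beside 1.79% of all genes higher and 1.07% lower by that fold. Gabbr2 (0.45) also had intervals apart, beside 2.02% of all genes higher and 0.464% lower with intervals apart. By the limit of 0.32, 7 members were higher, beside 6.57% of all genes, and 3 were lower, Gabrr3 (-0.35), Gabrr2 (-0.34) and Glra3 (-0.34), beside 4.32%. After removal of a trend on transcript length and GC content, Grin1 (0.47) and Grid1 (0.54) fell short of 1.5-fold, and with a pseudocount of 1 Grid1 did (0.57). The same removal left 5 members higher and 1, Gabrr2, lower by the limit of 0.32, beside 5.33% and 3.33% of all genes. It left the GABA and glycine median at -0.01 and the glutamate median at 0.17. The glutamate receptor subunits had a median of 0.22 with 20 of 21 above 0, and the GABA and glycine subunits -0.03 with 8 of 20 above 0, beside 52.1% of all genes above 0 and a median of 0.01.

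Grik3 (chromosome 4, 125490700 to 125714173 on the plus strand) encodes a kainate receptor subunit of low glutamate affinity. It was at 4.68 FPKM in WT (interval 3.99 to 5.36), 3.17 FPKM in the NdpKO (2.64 to 3.69), 6.54 FPKM in the stabilized library (5.64 to 7.44) and 4.92 FPKM in the stabilized NdpKO (4.21 to 5.64). The NdpKO was lowest and the stabilized library highest, while WT and the stabilized NdpKO overlapped. The highest library was 2.06 times the lowest, and intervals were apart in 4 of the 5 comparisons. Between the stabilized library (lower bound 5.6439 FPKM) and the stabilized NdpKO (upper bound 5.6395 FPKM) the gap was very narrow. Its share of the kainate sum was 7.6%, 5.1%, 9.4% and 7.0%.

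Grid1 (chromosome 14, 34820108 to 35583379 on the plus strand) encodes a delta receptor that binds cerebellins at synapses. It was at 4.33 FPKM in WT (3.46 to 5.19), 4.93 FPKM in the NdpKO (3.97 to 5.89), 6.35 FPKM in the stabilized library (5.20 to 7.51) and 6.92 FPKM in the stabilized NdpKO (5.71 to 8.14). Both stabilized libraries were above both others, with the intervals of the NdpKO and the stabilized NdpKO overlapping. Grin1 (chromosome 2, 25291181 to 25319187 on the minus strand) was at 10.03 FPKM in WT (8.54 to 11.5), 12.9 FPKM in the NdpKO (10.8 to 15.0), 13.7 FPKM in the stabilized library (11.4 to 15.9) and 15.8 FPKM in the stabilized NdpKO (13.5 to 18.2). WT was lowest, apart from the stabilized NdpKO alone, and the remaining libraries overlapped each other. Its deposited locus is shared with E130003G02Rik and Lrrc26, each below 1 FPKM.

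Gabbr2 (chromosome 4, 46662305 to 46991873 on the minus strand) was at 9.60 FPKM in WT (8.13 to 11.1), 10.6 FPKM in the NdpKO (9.01 to 12.2), 13.5 FPKM in the stabilized library (11.6 to 15.4) and 13.3 FPKM in the stabilized NdpKO (11.4 to 15.2). Grm7 (chromosome 6, 110645581 to 111567230 on the plus strand) was at 8.22 FPKM in WT (6.92 to 9.53), 8.68 FPKM in the NdpKO (7.33 to 10.03), 11.2 FPKM in the stabilized library (9.57 to 12.8) and 11.1 FPKM in the stabilized NdpKO (9.51 to 12.8). For both genes the stabilized libraries lay close together and above the others, while the intervals of the NdpKO and stabilized NdpKO overlapped. Gabrr2 went the other way: the stabilized libraries were lowest, but no intervals were apart.

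**Figure D4:**
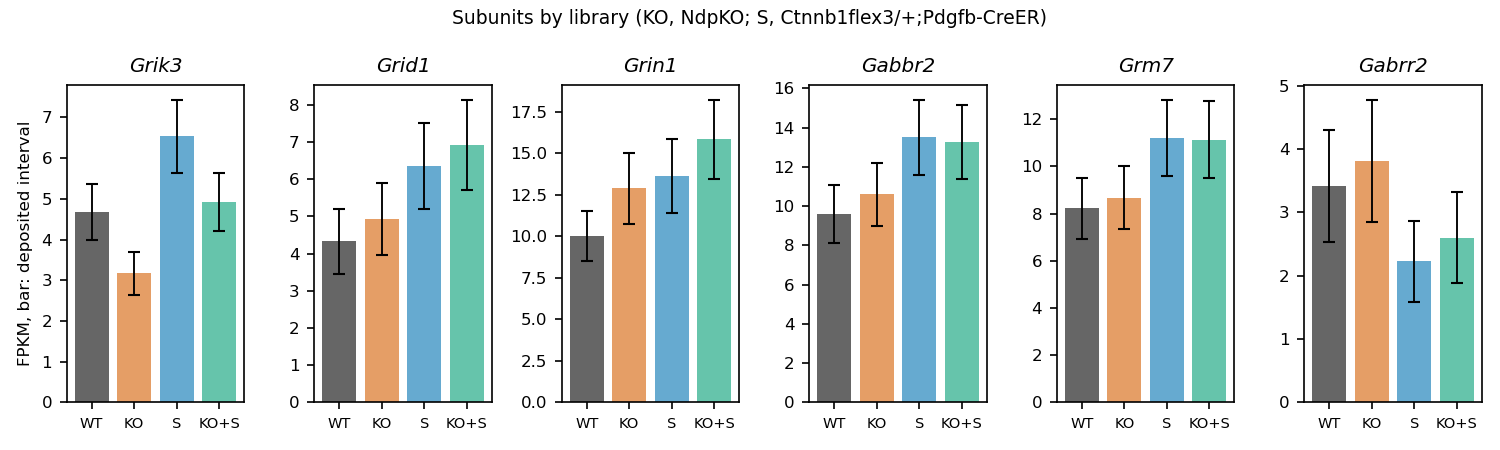
FPKM of 6 subunits in the 4 libraries, with bars from 0 and the deposited intervals as error bars. Grid1, Gabbr2 and Grm7 are highest in both stabilized libraries, Grin1 is lowest in WT, Grik3 ranges from 3.17 to 6.54 FPKM, and Gabrr2 is lowest in both stabilized libraries.

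Promoters of 35 members were found in RefSeq (GRCm38.p6, the assembly of mm10), as 250 bases before to 50 after the start. The 4 below belong to members with intervals apart that were higher in both stabilized libraries than in their unstabilized partners; Grid1 had no entry. Searched on both strands were CTTTGAT, a core of the TCF/LEF sites through which beta-catenin acts, the GC box GGGCGG and the TATA box TATAAA, and matches are in capitals.
Grin1 (chr2:25319138-25319437, minus strand): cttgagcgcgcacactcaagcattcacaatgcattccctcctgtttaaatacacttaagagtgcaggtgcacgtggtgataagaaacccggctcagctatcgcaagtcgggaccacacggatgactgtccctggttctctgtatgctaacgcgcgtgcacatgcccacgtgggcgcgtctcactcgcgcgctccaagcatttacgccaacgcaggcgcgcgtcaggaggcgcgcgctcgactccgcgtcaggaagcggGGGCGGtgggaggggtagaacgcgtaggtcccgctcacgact
Gabbr2 (chr4:46991665-46991964, minus strand): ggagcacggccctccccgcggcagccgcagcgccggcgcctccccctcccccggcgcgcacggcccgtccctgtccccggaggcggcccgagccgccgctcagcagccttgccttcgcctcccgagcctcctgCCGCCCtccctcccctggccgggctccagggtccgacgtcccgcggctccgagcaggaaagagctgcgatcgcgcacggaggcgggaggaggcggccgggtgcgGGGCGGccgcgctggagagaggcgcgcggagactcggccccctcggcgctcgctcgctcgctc
Grm7 (chr6:110645262-110645561, plus strand): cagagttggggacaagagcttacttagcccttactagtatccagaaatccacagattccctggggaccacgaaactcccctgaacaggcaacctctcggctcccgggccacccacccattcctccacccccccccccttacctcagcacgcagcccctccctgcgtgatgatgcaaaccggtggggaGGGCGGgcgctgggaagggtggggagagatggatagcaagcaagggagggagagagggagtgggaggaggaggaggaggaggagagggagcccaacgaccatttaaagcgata
Grik3 (chr4:125490446-125490745, plus strand): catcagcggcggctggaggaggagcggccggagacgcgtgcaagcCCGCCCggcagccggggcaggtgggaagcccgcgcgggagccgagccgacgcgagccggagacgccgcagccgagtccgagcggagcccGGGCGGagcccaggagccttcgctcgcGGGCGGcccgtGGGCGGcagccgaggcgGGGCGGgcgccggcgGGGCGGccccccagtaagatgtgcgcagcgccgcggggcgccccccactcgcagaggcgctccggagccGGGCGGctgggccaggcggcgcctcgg
All capitals in these promoters are GC boxes, 1 in Grin1, 2 in Gabbr2, 1 in Grm7 and 7 in Grik3. The GC box was in 21 of the 35 member promoters (60.0%) and in 35.9% of 27025 promoters. Member promoters also held more of the letters CG in general, with a median of 13 against 7 over all promoters. CTTTGAT was in 1 member promoter, that of Gabrp (2.86%), and in 3.72% of all, and TATAAA in 4 (11.4%) and in 14.2% of all. No matches of different motifs overlapped in the 4 printed promoters. These are matches of letters in a short window only.

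The genes that serve these receptors were counted by the same rule. None of 58 genes in 5 lists (auxiliary subunits, excitatory and inhibitory scaffolds, and the supply and uptake of glutamate and of GABA and glycine) was 1.5-fold apart in any comparison, where 0.692% to 1.79% of all genes were called in a direction, so a count of 0 is near the general share. The median over the 58 was 0.02 for the NdpKO and -0.03 for the stabilized library against WT, beside -0.02 for all genes in both. It was 0.09 for the stabilized NdpKO against the NdpKO, 0.10 against WT and 0.09 against the stabilized library, beside 0.03, 0.01 and 0.04 for all genes. Among auxiliary subunits of AMPA receptors the highest were Cacng7 (80.7, 74.3, 75.6 and 82.7 FPKM), Cacng4 (55.5, 52.8, 44.2 and 51.4 FPKM) and Cnih2 (37.0, 37.9, 34.8 and 41.0 FPKM). The postsynaptic scaffold Dlg4, which also lies in photoreceptor terminals, was at 133, 149, 126 and 136 FPKM. It was followed in its list by Dlg2 (41.1, 41.3, 39.6 and 44.4 FPKM) and Pick1, which binds AMPA subunits (21.1, 20.4, 19.9 and 20.5 FPKM). The list of inhibitory scaffolds was led by the Gabarap family, at 152, 155, 142 and 151 FPKM for Gabarapl2, 126, 117, 106 and 121 FPKM for Gabarap and 80.7, 84.4, 75.7 and 78.4 FPKM for Gabarapl1. Gphn, the gene of gephyrin, was at 21.2, 21.7, 20.8 and 22.3 FPKM.

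Glutamate supply was led by Slc17a7, the vesicular transporter of photoreceptors and bipolar cells, at 210, 257, 192 and 226 FPKM. Glul, the glutamine synthetase of Muller glia, was at 176, 228, 134 and 174 FPKM, lower in each stabilized library than in its partner (-0.39 in both pairs). The glutamate transporter Slc1a3 of the same cells was at 76.3, 78.4, 72.02 and 85.6 FPKM. For GABA, the uptake transporter Slc6a11 was at 44.1, 43.3, 49.2 and 57.7 FPKM, and the synthetic enzyme Gad1 at 42.4, 45.2, 50.6 and 53.6 FPKM. Both genes were higher in both stabilized libraries, although each fell short of 1.5-fold. Slc12a5, the chloride exporter that makes GABA and glycine inhibitory, was at 58.3, 66.5, 67.4 and 68.6 FPKM.

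Markers of several cell types moved with the stabilized libraries as well. The 5 ganglion cell markers, all detected, summed to 162, 200, 225 and 228 FPKM, and the 5 amacrine cell markers to 156, 157, 178 and 180 FPKM. Bipolar cell markers summed to 485, 459, 435 and 455 FPKM, horizontal cell markers to 21.2, 20.5, 19.4 and 17.8 FPKM and those of Muller glia to 433, 477, 365 and 420.5 FPKM. The 4 endothelial markers summed to 10.2, 4.45, 27.5 and 25.1 FPKM and the 3 astrocyte markers to 9.43, 11.9, 16.8 and 19.8 FPKM, both highest in the stabilized libraries. The low endothelial sum of the NdpKO came mainly from Cldn5, at 6.91 FPKM in WT and 0.675 FPKM in the NdpKO. Between the same libraries Pecam1 was about level (1.93 and 2.02 FPKM), Cdh5 higher (0.754 and 1.36 FPKM) and Tek lower (0.562 and 0.399 FPKM). The 4 pigment epithelium markers summed to 15.2, 18.02, 25.2 and 17.3 FPKM, highest in the stabilized library with Ndp intact. No marker in these lists was listed at 0 throughout. The part of these shifts in the receptor ratios was not tested, and in whole-retina RNA a smaller share of a cell type and less RNA per cell cannot be told apart. Across all genes with a known transcript the ratio of the stabilized library to WT also ran with GC content (Spearman rank correlation 0.32) and transcript length (0.23), a description over genes of the same libraries. The correlation with GC content was 0.33 for the stabilized NdpKO against WT and 0.24 for the NdpKO against WT. It was 0.16 for the stabilized NdpKO against the NdpKO and -0.06 against the stabilized library.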

How the data were processed

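A single table was deposited, in which the authors give each gene an FPKM, its bounds and a status in every library. The submitters' processing notes name TopHat, Cuffdiff and mm10; the versions, annotation, strand, read totals and level of the bounds are unknown (not given in the sources used here). The deposited FPKM values are relative within a library. Columns were assigned by the number that the column name shares with a sample's description.

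Log2 ratios were computed on FPKM plus 0.5, which understates changes of low genes, for 13150 genes of mean at least 1 FPKM and status OK in each of 4 libraries. With 1 library a group nothing was tested. An additive fit of both factors was not run. A value past 1.5-fold was counted over the members and over all genes. Subunit shares are percents of the summed FPKM of a class. The members, lists and rules were chosen with earlier results of these data known, and the split into glutamate and inhibitory receptors, the printed promoters and the 6 subunits plotted singly were chosen after their values were seen. The members were to be named in full and, from each other list, the 3 of highest mean. Gphn and Gad1 were added, and a few genes are not reported here.

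How fragments were divided among genes that share a deposited locus, as 7 tested members do, was not stated. Gene positions came from GENCODE M21 on the same assembly, and 90.5% of tested genes and all 41 tested members had a transcript length and GC content. Alternatives were a pseudocount of 0.1 or 1, minimum means of 5 and 0.5 FPKM or no minimum, re-centring, TPM, all statuses, intervals apart, a 2-fold limit, a lower limit of 0.32 (log2) and, added after seeing the data, removal of a robust cubic trend on length and GC content. The ratio step was tested on simulated libraries. The software was Python 3.11.15 with matplotlib 3.10.9, statsmodels 0.14.6, pandas 2.3.3 and numpy 2.4.6.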

Additional observations from a re-analysis of the deposited data

How the results depend on the processing

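No paired analysis was possible because each genotype has 1 pooled library. By the lower limit of 0.32 on the log2 scale the counts of members were 2 higher and 3 lower for the NdpKO against WT, 7 and 4 for the stabilized library against WT, 6 and 1 for the stabilized NdpKO against the NdpKO, 7 and 3 for it against WT, and 0 and 1 for it against the stabilized library. Over pairs that share no library, 3 members were then higher and 1 lower in both stabilization pairs, and 1 lower in both pairs of Ndp loss. With a pseudocount of 0.1, 1 member was 1.5-fold lower in the NdpKO than in WT, 1 was higher and 1 lower in the stabilized library than in WT, 2 were higher in the stabilized NdpKO than in the NdpKO, and 3 were higher in it than in WT. The shares of all genes called at that setting were 1.44%, 2.12% and 2.17%, 2.25% and 2.27%, in the same order. Rescaling to TPM put 2 members higher by 1.5-fold in the stabilized library against WT, beside 2.43% of all genes. The 2 members higher in the stabilized NdpKO than in WT became 1 with a pseudocount of 1, 0 at 2-fold and 0 after removal of the trend on length and GC content. With that trend removed and the limit of 0.32, an alternative chosen after seeing the data, the counts higher and lower were 0 and 2 for the NdpKO against WT, 2 and 2 for the stabilized library against WT, 4 and 1 for the stabilized NdpKO against the NdpKO, 5 and 1 for it against WT, and 0 and 1 for it against the stabilized library. For the last of these, 2.57% of all genes were higher and 2.6% lower. At this setting 1 member was higher and 1 lower in both stabilization pairs. In both pairs of Ndp loss 1 member was lower, beside 0.546% of all genes. The cause was not tested.

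Medians moved by less than 0.1 under every setting tried. In the stabilized library against WT, the median of glutamate receptor subunits ranged from 0.13 to 0.27 and that of GABA and glycine receptor subunits from -0.17 to -0.09. The glutamate median of the stabilized NdpKO against the stabilized library turned from 0.04 to -0.03 with TPM. Counting members of at least 1 FPKM alone, Grin1 made up 77.0% in place of 64.3% of the NMDA sum in WT, and Gabrd 100% of its group. Precision for members under 3 FPKM is limited, and no member under 3 FPKM had intervals apart in any comparison.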
